A study of Mus musculus with 9 samples.

Results

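Organoids at differentiation day 16 (DD16) were compared with organoids at day 10 (DD10), that is, 6 of the 9 samples of the series: the 3 whose titles give dd16 against the 3 whose titles give dd10, paired by line. The lines were wild type (WT, called NCT by the submitters), B4KO (knockout of Bhlhb4, now named Bhlhe23) and Isl1KO (knockout of Islet-1, Isl1), so each line gave 1 sample per day, and each sample pooled 5 organoids. All were mouse retinal organoids, grown from ES or iPS cells as serum-free floating aggregates by quick reaggregation, and no agent other than the culture itself is named for any group. The labels do not say whether the lines share a parent, whether each knockout is 1 clone or where its deletion lies. RNA was measured on single-colour arrays, on which WT and Isl1KO shared 1 slide, B4KO had the other, and each day had its own array column, so day and column cannot be told apart.

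In this culture a neuroepithelium forms first, from which neural retina, pigment epithelium and neighbouring forebrain tissue can separate. Retinal progenitors then leave the cell cycle and make ganglion, horizontal and amacrine cells and cones before most rods, bipolar cells and Mueller glia. Wnt, BMP and retinoic acid signals pattern the eye cup, Notch signalling holds cells in the progenitor state, and bHLH factors release them from it.

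Values are the log2 of the processed signal of a probe over the 75th percentile of its array, so 0 is a fairly bright gene, and a difference of 1 is a doubling relative to that percentile. A gene passed when limma, fitted on all genes and 9 samples with line and day as terms, gave an adjusted p under 0.05. The other 3 samples of the fit are those of day 23 (DD23), 1 per line. The error is the departure of the lines from common differences between the 3 days, since no line and day was sampled again. It thus also holds how the lines differed at DD23. For each day n is 3 samples throughout. Of 23594 genes tested, 5167 rose (21.9%) and 4439 fell (18.8%), with a median step of 0.03. Rises of at least 2-fold numbered 1598 (6.77%) and such falls 987 (4.18%). The shares that passed are the background for the counts below. Centring each array on its median in place of the 75th percentile gave 3699 higher and 5715 lower. On the slide shared by WT and Isl1KO alone 4899 genes passed. Without the Isl1KO line 1849 rose and 1367 fell (13.6% in all), and without the WT line 3032 and 2223. Without 1 of the 6 samples between 5899 and 7272 passed. A set of 6 spike-in RNAs of middle brightness, chosen as a scale after seeing the data, stood 0.52 higher at DD16 relative to the 75th percentile (0.60 in WT, 0.51 in B4KO and 0.45 in Isl1KO), so scaling to them lowers every step by about that much. The median step of all genes is then -0.49, with 1607 genes higher and 14324 lower, and rises smaller than that amount turn negative. In pooled tissue, fewer cells of a type and less RNA per cell cannot be told apart.

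**Figure D1:**
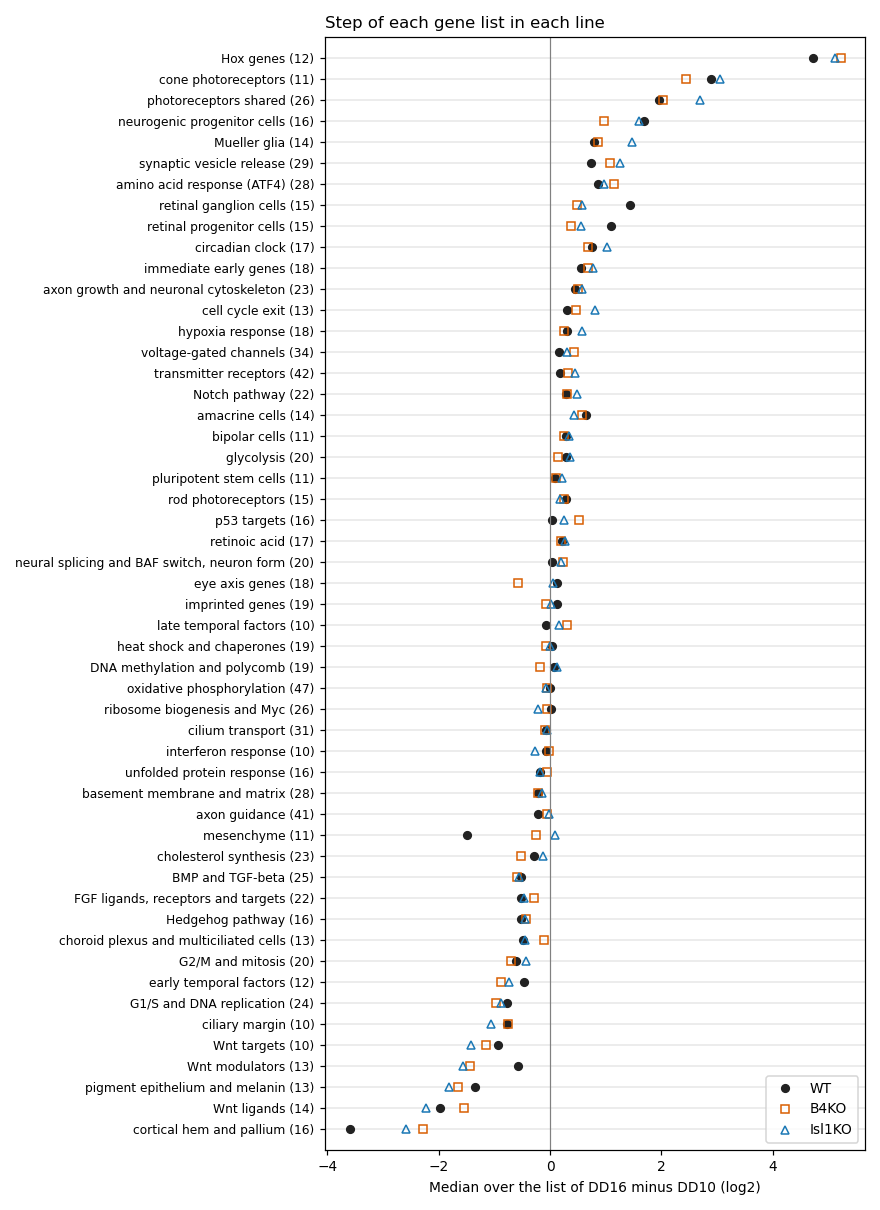
Median over the tested members of each list of at least 10 genes (number in brackets) of the difference DD16 minus DD10 in log2 signal, 1 point per line. Hox genes had medians of 4.73, 5.22 and 5.12 in WT, B4KO and Isl1KO at the top, differences from DD10 signals that mostly lay below background (2.97 over lines with bounds), and cortical hem and pallium genes of -3.60, -2.29 and -2.59 at the bottom.

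The 2 genes named by the knockouts were read first. Isl1, a LIM homeodomain factor of ganglion, amacrine and bipolar cells (probe on chromosome 13, 117099604 to 117099663, build mm9), had signals of -0.60 and 1.45 in WT at DD10 and DD16, 0.92 and 1.19 in B4KO, and -1.24 and -0.44 in Isl1KO. Its step over the lines was 1.04 (SE 0.33, limma adjusted p = 0.0499), at the edge of the threshold. The days overlapped. Isl1KO had the lowest signal of the lines on each day with this probe, but a second probe gave -1.25 and 0.85 in WT, 0.04 and 0.23 in B4KO, and -0.88 and 0.10 in Isl1KO, where WT was lowest at DD10. Whether either probe lies in the deleted part is not given, so neither checks the label. Bhlhe23, a bHLH factor of rod bipolar and amacrine cells (chromosome 2, 180509639 to 180509698), was dim, at -3.20 and -2.82 in WT, -3.41 and -4.88 in B4KO, and -2.95 and -4.55 in Isl1KO. Its step of -0.90 (SE 0.45) did not pass. The DD16 signal was lowest in B4KO but nearly as low in Isl1KO.

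Retinoid genes turned over. Retinoic acid is made from retinal by ALDH1A enzymes, is removed by CYP26 enzymes, and acts through RAR and RXR receptors. Of 17 retinoic acid genes tested, 7 rose and 4 fell, with a median of 0.19 (-0.33 with spike-in scaling). Among the enzymes that make the acid, Aldh1a3, of the ventral retina, had signals of -0.80, 0.16 and -0.19 at DD10 in WT, B4KO and Isl1KO, and -4.11, -3.78 and -2.27 at DD16. It fell by 3.11 (SE 0.39). Aldh1a1, of the dorsal retina, had 7.34, 8.07 and 7.82 at DD10 and fell by 1.89 (SE 0.34) to 6.01, 6.16 and 5.39. Aldh1a7, a close relative of Aldh1a1 with which a probe could share RNA, fell from between 4.66 and 5.52 to between 0.15 and 0.63. The days did not overlap for any of these enzymes.

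Genes that degrade or store retinoids went the other way. Dhrs3, which reduces retinal back to retinol, went from -2.48, -3.07 and -2.85 to 3.24, 4.05 and 3.47. This was a rise of 6.39 (SE 0.27), while its other probe gave 2.99. Cyp26b1 went from -1.54, -2.81 and -2.64 to 1.58, 2.99 and 1.64, a rise of 4.40 (SE 0.49). Cyp26a1 rose by 2.35 (SE 0.58), from -4.41, -2.72 and -1.72 to -1.12, -0.77 and 0.09. The retinol carrier Rbp4 rose by 3.63 (SE 0.41). Among the receptors, Rarb stepped by nearly one amount in every line, from -3.14, -2.63 and -2.82 to 2.14, 2.70 and 2.34. Its rise of 5.26 had an SE of 0.08, and its second probe gave 4.41. Rara rose by 0.56, and Rxrg, which cones also express, by 2.33. Rarg and Rxra had values of 0.52 and 0.19 that did not pass.

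Hox genes, homeobox genes that pattern hindbrain and trunk, were mostly below background at DD10. Of 12 tested, 10 rose and 0 fell, and 11 others of the list were well above background on fewer than 3 of the 9 arrays of the series and were not tested. Of those tested, 11 were not well above background on any DD10 array and have only a bound, with which the median step is 2.97 in place of 5.06. Hoxb3, chosen after its values were seen, was well above background on all 6 arrays and had a step of 0.19 that did not pass. Because a Hox gene could pass that filter by its DD16 signal alone, the count is a description. Hoxb5 was not well above background on any DD10 array and had 0.36, 0.48 and -0.10 at DD16, at least 34.6-fold higher. Hoxb8 (1.01, 1.41 and 0.58 at DD16) was at least 58.5-fold higher, and Hoxb7 at least 52.2-fold, while Hoxb9 was at least 12.5-fold and Hoxc4 at least 9.80-fold higher. These genes belong to clusters b and c. Such folds are lower bounds, taken against the dimmest signal called above background on each array of the dimmer day. Of 6 hindbrain and spinal cord genes tested outside the Hox clusters, 1 rose and 1 fell (median 0.08, or -0.44 with spike-in scaling).

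**Figure D2:**
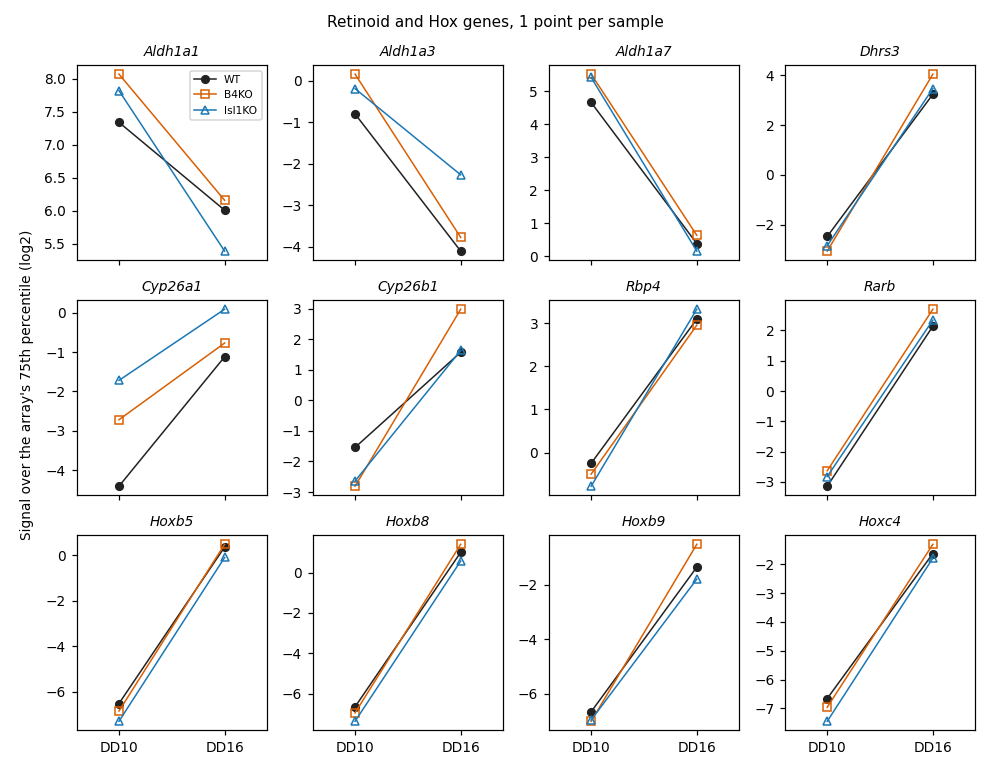
Signal (log2, over the array's 75th percentile) of 12 retinoid and Hox genes at DD10 and DD16, 1 point per sample and 1 line per cell line. All 3 lines move the same way in each panel, with Aldh1a1, Aldh1a3 and Aldh1a7 falling and the others rising; the Hox panels lie at background at DD10.

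The retinoic acid response element known from Rarb and Cyp26a1 was looked for as a direct repeat of GTTCA with 6 bases between, on both strands, in RefSeq promoters of build GRCm38.p6 that run from 250 bases before to 50 after the gene's start. It was chosen after the values were seen. Of the 14 retinoic acid genes with a promoter in that set 2 held it, against 24 of 27025 genes in all (0.0888%). They were Rarb and Cyp26a1, the genes the element is known from, so the choice of element fixed this count and nothing is read from it. Their promoters are printed to show it, 5′ to 3′ on the gene's strand with the match in capitals.
Rarb (chr14:16575427-16575726, minus strand): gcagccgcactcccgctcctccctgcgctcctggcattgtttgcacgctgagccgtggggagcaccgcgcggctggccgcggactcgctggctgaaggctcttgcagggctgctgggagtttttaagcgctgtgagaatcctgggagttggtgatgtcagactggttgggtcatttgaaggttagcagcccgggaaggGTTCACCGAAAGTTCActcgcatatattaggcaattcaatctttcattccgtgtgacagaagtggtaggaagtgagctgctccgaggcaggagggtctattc
Cyp26a1 (chr19:37697558-37697857, plus strand): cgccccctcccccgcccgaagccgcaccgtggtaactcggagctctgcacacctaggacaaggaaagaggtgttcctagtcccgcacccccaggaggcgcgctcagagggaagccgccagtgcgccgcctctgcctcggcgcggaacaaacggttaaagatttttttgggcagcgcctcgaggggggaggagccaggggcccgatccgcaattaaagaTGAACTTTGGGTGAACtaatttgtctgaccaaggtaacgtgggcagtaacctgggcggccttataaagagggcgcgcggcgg
In Rarb the match begins at -52 from the start. In Cyp26a1 it begins at -32 and reads on the other strand. A match is a description of the letters and not a measured binding site.

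Clock genes rose together. The circadian clock is a feedback loop in which CLOCK and ARNTL (BMAL1) switch on Per, Cry and Nr1d genes, whose products switch the loop off again. Of 17 clock genes tested 16 rose (94.1%, against 21.9% of all genes) and 0 fell, with a median of 0.82. Bhlhe40, a repressor of CLOCK and ARNTL, went from -1.41, -1.34 and -1.46 in WT, B4KO and Isl1KO to 1.18, 0.58 and 1.20, a rise of 2.39 (SE 0.25). Nr1d1, the repressor REV-ERB alpha, went from -3.67, -3.41 and -3.50 to -2.13, -2.61 and -1.77, a rise of 1.36 (SE 0.22). The days did not overlap for these genes.

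Both limbs of the loop were higher at DD16. Arntl, of the activating limb, rose by 0.55 (SE 0.12), and Per2, of the repressing limb, by 1.08 (SE 0.20). The output factors Hlf and Dbp rose by 1.30 (SE 0.23) and 0.82 (SE 0.17). Ciart had a value of 0.28 that did not pass. The labels give no time of day for the harvest, and a part of clock phase in these steps was not tested. The step was lowest in B4KO for 11 of the 17 genes and highest in Isl1KO for 12, against 34.0% and 31.0% of all genes. This order was not particular to clock genes, since it held for 14 and 15 of 18 hypoxia genes and 17 and 17 of 20 mitosis genes. Other lists lacked it, such as oxidative phosphorylation with 17 and 3 of 47. Within the slide of WT and Isl1KO 8 clock genes passed, and with spike-in scaling 7 rose and 0 fell (median 0.30).

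Genes of the amino acid response rose as well. ATF4 is the transcription factor made when amino acids run short or the kinases of the integrated stress response are active, and it drives amino acid synthesis, uptake and tRNA charging. Of 28 genes tested 24 rose (85.7%) and 0 fell, with a median of 0.94, or 0.86, 1.14 and 0.96 in WT, B4KO and Isl1KO. Among regulators, Trib3, a pseudokinase that restrains ATF4, went from -0.21, -0.23 and -0.62 to 2.25, 2.78 and 2.18, a rise of 2.76 (SE 0.12). Ddit3 (CHOP) rose by 1.86 (SE 0.10), Atf5 by 2.44 (SE 0.11) and Atf4 itself by 0.40 (SE 0.07), which spike-in scaling turns to -0.12. Nupr1, a stress-induced chromatin protein, had the largest rise of the list, 5.84 (SE 0.34), but its other probe gave 0.98.

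Enzymes and transporters followed. Asns, which makes asparagine, went from 3.34, 3.61 and 3.05 to 4.88, 5.09 and 4.90, a rise of 1.62 (SE 0.11). Chac1, which breaks down glutathione, rose by 2.07 (SE 0.09) and Cth, which makes cysteine, by 2.11 (SE 0.11). The amino acid carriers Slc7a3 and Slc7a5 rose by 1.80 (SE 0.11) and 1.01 (SE 0.19). The secreted stress hormones Gdf15 and Fgf21 rose by 4.18 (SE 0.31) and at least 2.15-fold. Each of these genes was higher on all 3 DD16 arrays than on any DD10 array. Phgdh, the first enzyme of serine synthesis, had -0.35, Wars 0.09, Vldlr 0.40 and Slc7a11 0.83, none of which passed. With spike-in scaling 14 rose and 2 fell (median 0.42).

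**Figure D3:**
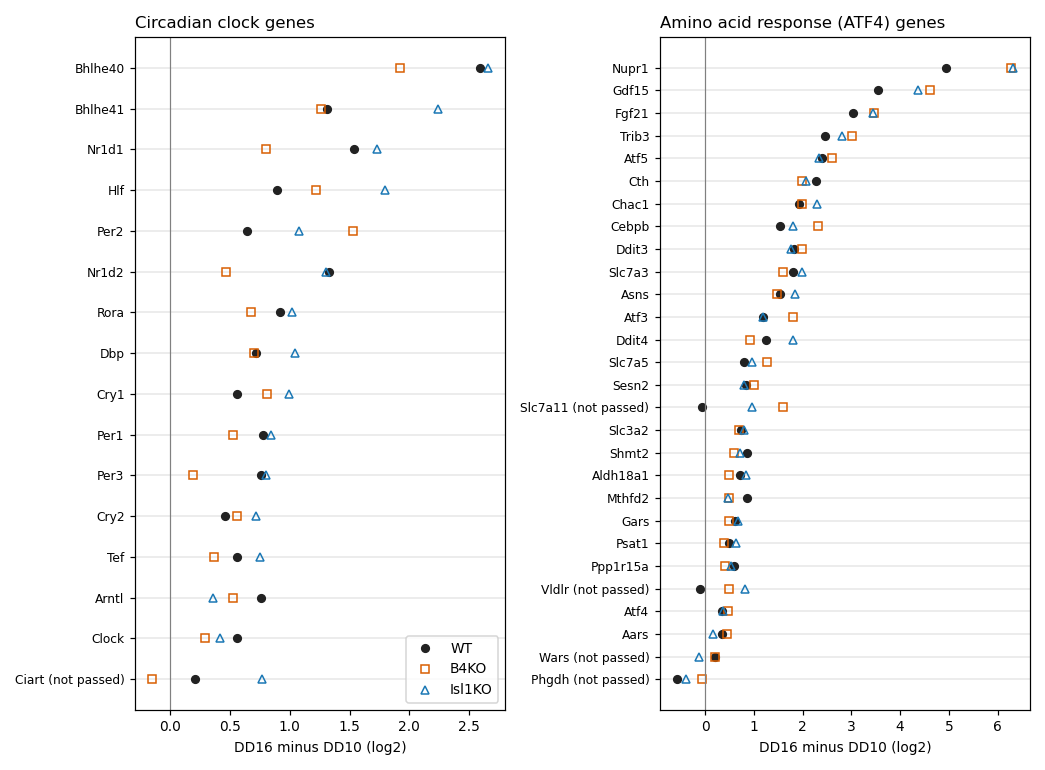
Difference DD16 minus DD10 (log2) of clock genes (left, without 1 that is not reported here) and ATF4 genes (right) in each line, ordered by the mean step. Genes that did not pass the limma test are marked: 1 clock gene, Ciart, and 4 ATF4 genes.

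Other stress lists held calls in both directions, mostly at shares near or below those of all genes (21.9% higher and 18.8% lower). Of 19 heat shock genes 3 rose and 3 fell (15.8% each, median -0.02). The inducible chaperone Hspa1a went from -1.67, -1.10 and -1.49 to 3.08, 1.90 and 3.28, a rise of 4.18 (SE 0.47), and Hspa1b rose by 3.77 (SE 0.54). These 2 genes are near-identical copies whose probes could share RNA. The co-chaperone Dnaja1 fell by 0.52 with the probe used, but its probes ranged up to 0.49, and Hsf1, the heat shock factor, had 0.05. Of 16 unfolded protein response genes 3 rose (18.8%) and 5 fell (31.2%), with Herpud1 higher by 1.04 and Sdf2l1 lower by 0.63. The falls numbered 2 without the WT sample at DD10, the B4KO sample at DD16 or the Isl1KO sample at DD10 (when 1 rose), and 1 without the Isl1KO sample at DD16. Of 16 p53 targets 1 rose (6.25%) and 3 fell (18.8%). Leaving out 1 sample of WT or Isl1KO gave 0 falls, leaving out 1 of B4KO gave 2, and 6 rose without the WT sample at DD10.

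Motifs known for these programs were counted in the same promoters on both strands, where a list gene may have several promoters and any may hold the match. TGATGNAA, the site bound by ATF4 with a C/EBP partner, was in 10 of 24 ATF4 genes (41.7%, against 4.51% of all genes). GAANNTTC, a heat shock element of paired repeats, was in 10 of 14 heat shock genes (71.4%, against 9.04%). CACGTG, the E-box, was in 5 of 14 clock genes (35.7%, against 8.09%), a count added after the values were seen, and in 5 of 21 ribosome biogenesis genes (23.8%). The lists hold genes already known for each program, so a share above that of all genes could follow from the choice of list. Nothing about the steps is read from these shares. In the ATF4 list genes with and without a match rose, and in the heat shock list genes with a match both rose and fell. Promoters are printed for 3 ATF4 genes that rose and for 2 heat shock genes that hold the element, Hspa1a, which rose, and Dnaja1, whose direction depends on the probe, with matches in capitals.
Trib3 (chr2:152344011-152344310, minus strand): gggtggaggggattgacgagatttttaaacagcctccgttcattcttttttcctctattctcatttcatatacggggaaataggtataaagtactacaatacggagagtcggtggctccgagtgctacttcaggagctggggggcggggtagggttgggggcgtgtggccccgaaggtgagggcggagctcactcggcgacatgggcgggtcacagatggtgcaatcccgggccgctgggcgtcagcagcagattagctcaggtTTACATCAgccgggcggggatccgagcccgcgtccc
Nupr1 (chr7:126625421-126625720, minus strand): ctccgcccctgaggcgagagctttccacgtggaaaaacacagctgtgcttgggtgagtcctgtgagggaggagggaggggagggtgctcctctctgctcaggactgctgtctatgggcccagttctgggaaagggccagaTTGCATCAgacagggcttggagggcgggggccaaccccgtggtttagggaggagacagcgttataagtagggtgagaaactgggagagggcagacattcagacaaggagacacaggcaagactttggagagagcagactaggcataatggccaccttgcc
Chac1 (chr2:119350992-119351291, plus strand): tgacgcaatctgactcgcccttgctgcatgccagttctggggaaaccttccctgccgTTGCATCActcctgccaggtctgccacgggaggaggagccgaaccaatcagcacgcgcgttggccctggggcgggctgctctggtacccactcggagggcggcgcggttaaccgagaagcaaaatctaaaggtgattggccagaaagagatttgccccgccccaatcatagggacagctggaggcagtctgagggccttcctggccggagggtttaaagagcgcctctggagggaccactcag
Hspa1a (chr17:34972107-34972406, minus strand): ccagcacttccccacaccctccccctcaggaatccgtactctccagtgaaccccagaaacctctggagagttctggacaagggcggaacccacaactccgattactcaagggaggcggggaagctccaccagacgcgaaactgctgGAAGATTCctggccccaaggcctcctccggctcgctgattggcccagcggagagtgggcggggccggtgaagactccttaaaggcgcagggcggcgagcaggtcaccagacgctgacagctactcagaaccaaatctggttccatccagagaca
Dnaja1 (chr4:40722218-40722517, plus strand): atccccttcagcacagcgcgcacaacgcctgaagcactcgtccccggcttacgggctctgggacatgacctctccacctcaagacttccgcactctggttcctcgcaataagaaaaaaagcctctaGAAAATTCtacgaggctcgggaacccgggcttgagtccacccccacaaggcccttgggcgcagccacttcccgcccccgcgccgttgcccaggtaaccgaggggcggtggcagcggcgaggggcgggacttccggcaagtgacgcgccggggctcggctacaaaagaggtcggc
The match begins at 14 from the start in Trib3, at -110 in Nupr1 and at -193 in Chac1. In the heat shock genes it begins at -104 (Hspa1a) and -124 (Dnaja1, in 1 of its 3 promoters).

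Genes of the cortical hem and pallium, the dorsal forebrain tissue next to the eye field, fell in 14 of 16 (87.5%, against 18.8% of all genes), and 0 rose. The median step was -2.80, and -2.67 once members with only a bound were set to it. Rspo1, which amplifies Wnt signals, went from 5.84, 4.76 and 5.05 to 0.40, 0.61 and 0.24 (-4.80, SE 0.32). Wnt3a, the hem's signature ligand, went from 1.75, 0.83 and 1.07 to -3.64, -3.53 and -3.50 (-4.78, SE 0.26). Rspo3 fell by 3.97 (SE 0.41), and Dmrta1 was at least 9.32-fold lower. The pallial factors Emx1 and Emx2 fell by 2.93 (SE 0.34) and 2.33 (SE 0.40), and Tbr1, of early cortical neurons, fell by 2.31 (SE 0.46). The days did not overlap for Rspo1 or Wnt3a.

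Wnt ligands and feedback genes of the pathway fell with them. Of 14 ligands tested 11 fell and 1 rose (median -1.96, or -1.43 with dim members at their bound). Wnt8b, shared with the hem list, fell by 3.51 (SE 0.39), and Wnt2b and Wnt10a, the first of them also in the hem list, were at least 3.01-fold and 4.16-fold lower. Wnt11, a ligand of the noncanonical branch, rose by 1.57, with 0.40 from its other probe. Of 10 targets 7 fell and 0 rose. Axin2, a feedback inhibitor read as a sign of Wnt activity, went from 1.56, -0.63 and 0.81 to -1.22, -2.09 and -1.47 (-2.17, SE 0.26). Sp5 fell by 3.49 (SE 0.38) and Lef1 fell by 1.94 (SE 0.15). Rnf43 and Notum, at 0.06 and -0.05, did not pass. Of 13 modulators 7 fell and 3 rose. The inhibitor Dkk1 fell by 3.77, and Dkk3, a divergent member of its family abundant in retina, rose by 1.56. Leaving out any sample but the Isl1KO one at DD10 left 1 modulator higher.

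**Figure D4:**
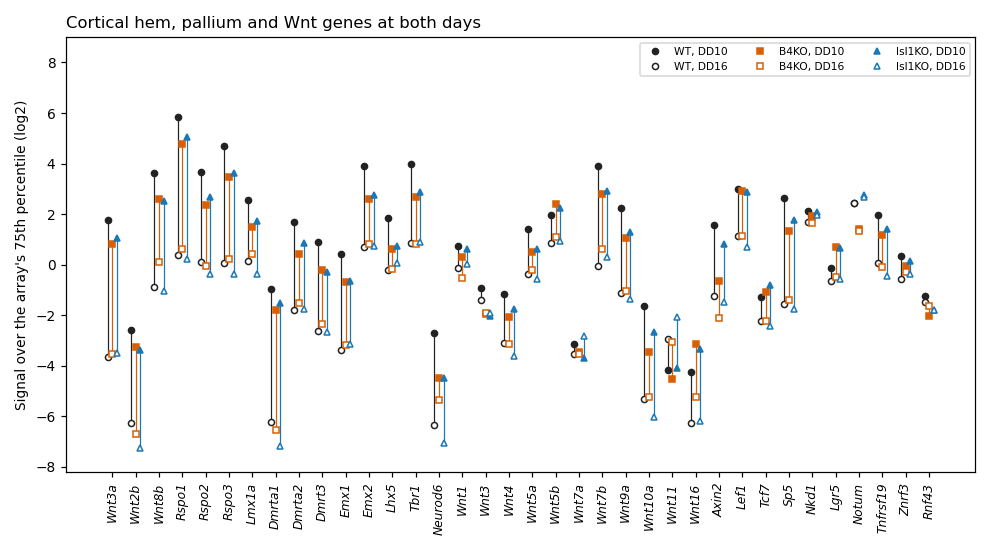
Signal (log2, over the array's 75th percentile) of tested cortical hem and pallium genes, Wnt ligands and Wnt targets (without 1 that is not reported here), with DD10 filled and DD16 open, 1 pair per line. Rspo1 falls from between 4.76 and 5.84 to between 0.24 and 0.61.

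BMP and FGF genes were lower too. Of 25 BMP and TGF-beta genes 12 fell and 2 rose (median -0.38). The ligands Bmp5, Bmp4 and Bmp6 had steps of -4.28, -2.30 and -2.30 and the antagonist Fst of -3.13. Id3 and Id2, immediate targets of BMP, had -2.04 and -1.56. The receptor Bmpr1b rose by 1.14, but 0 of these genes rose without the WT or Isl1KO sample at DD16, and 1 without the B4KO sample at DD10. Of 22 FGF genes 11 fell and 3 rose, or 7 fell without the Isl1KO sample at DD10. The receptor Fgfr3 had -1.73 and the feedback inhibitors Il17rd and Spred3 -1.50 and -1.39 (another Il17rd probe gave -0.01), while the ligands Fgf3 and Fgf15 rose by 2.11 and 2.15. Of 16 Hedgehog genes 9 fell and 3 rose, with the effector Gli3 at -1.24 and the co-receptor Gas1 at -1.91. Without the B4KO sample at DD16 or the Isl1KO sample at DD10, 5 fell.

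Lists of tissue beside the neural retina were unlike each other. Of 13 pigment epithelium and melanin genes 10 fell and 0 rose (median -1.44). Mitf, which sets pigment fate, went from 2.66, 2.81 and 2.68 to 0.05, 0.72 and -0.42 (-2.60, SE 0.18). Gpr143 and Slc45a2, of pigment granules, fell by 2.81 and 3.47, but Tyrp1 and Dct, which make melanin, had 0.12 and -0.23 and did not pass. Of 10 ciliary margin genes 9 fell, or 5 without the B4KO sample at DD16 and 4 without the Isl1KO sample at DD16. Among them Msx1 fell by 1.89 and Wfdc1 by 1.33. Of 9 lens genes 5 fell, and 6 further lens genes were not tested. Of 13 choroid plexus and multiciliated cell genes 5 fell and 3 rose. Gmnc, which starts the multiciliated program, was at least 47.2-fold lower, and Ccno, of the same program, fell by 2.62. Aqp1, a water channel, and Ttr, a thyroxine and retinol carrier, rose by 2.98 and 2.37. Of 8 neural crest genes 3 fell, with Pax3 lower by 2.25 and Snai2 by 1.91, and 1 rose, with a median of 0.13 (-0.39 with spike-in scaling). Of 11 mesenchyme genes 3 fell, led by Postn, a matrix protein (-4.34), and 2 rose, or 1 without any 1 sample of B4KO or Isl1KO. The mesenchyme shares, 27.3% lower and 18.2% higher, were near those of all genes.

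Retinal progenitor genes did not move as 1 block. Of 15 tested 9 rose and 2 fell, but 4 rose without the WT or Isl1KO sample at DD16, 5 without the Isl1KO sample at DD10 and 5 within the slide of both lines. Hes5, a Notch effector, went from 4.70, 4.57 and 3.95 to 6.64, 6.35 and 6.79, a rise of 2.19 (SE 0.23). Fgf15 went from 0.82, 1.92 and 1.55 to 3.47, 3.35 and 3.92, and Ccnd1, the cyclin of retinal progenitors, rose by 1.69 (SE 0.41). Sox2 and the Wnt antagonist Sfrp2 fell by 0.66 and 1.25. Pax6 and Lhx2, eye field factors, had 0.06 and 0.07 and did not pass. Rax, an eye field factor that defines the list, was bright on all 6 arrays, between 4.23 and 6.43.

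Genes of cells about to become neurons rose in 13 of 16 (81.2%), and 0 fell. Olig2, of a progenitor subset, went from -3.75, -3.77 and -3.62 to -0.17, -0.61 and -0.07 (3.43, SE 0.15). The proneural gene Neurog2 rose by 2.32 (SE 0.29). Neurod4 rose by 4.38 (SE 0.34). Atoh7, which makes progenitors competent for ganglion cell fate, had 0.67 (SE 0.39) and did not pass, with 3.55, 5.52 and 4.47 at DD10 and 5.18, 5.08 and 5.28 at DD16. Of 22 Notch genes 10 rose and 7 fell, with a median of 0.28 (-0.24 with spike-in scaling). The ligands Dll4 and Dll3 and the effector Heyl (at least 6.31-fold) were among the rises and Jag1, a ligand of the ciliary margin, and Notch3 among the falls (-1.77 and -1.10). Without single samples 5 to 9 Notch genes rose and 4 to 5 fell, lowest without the WT or Isl1KO sample at DD16 for the rises.

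Replication genes fell in 20 of 24 and 0 rose (median -0.85), although Ccnd1 and Hes5 rose. Mcm7, of the replicative helicase, went from 4.34, 4.77 and 4.55 to 3.54, 3.75 and 3.53 (-0.95, SE 0.10). Tyms fell by 1.25, Gins1 by 1.22 and Mcm5 by 1.21. The falls numbered 12 to 13 without the B4KO or WT sample at DD16 or the Isl1KO sample at DD10, and 9 within the slide of WT and Isl1KO. Mitosis genes fell in 9 of 20, led by Bub1b (-1.01) and Kif20a (-0.97). Leaving out any sample but the Isl1KO one at DD16 lowered that to between 3 and 5. Exit genes were mixed, with 5 of 13 higher (38.5%) and 2 lower (15.4%, near the 18.8% of all genes). Leaving out any 1 sample gave 4 to 7 higher and 1 lower. Among the rises, Btg1 and Btg2, which slow division, had 1.78 and 1.72 (another Btg1 probe gave -0.17), and Cdkn1b, the inhibitor p27, 0.59. Of the E2F sites TTCGCGC or TTGGCGC, 7 of 18 replication genes with a promoter held at least 1 (38.9%, against 4.47% of all genes). This list too holds genes already known for its program, and genes with and without a site fell. The promoter of Mcm7, which fell, is printed with its 2 overlapping matches in capitals, the first beginning at 17 from the start.
Mcm7 (chr5:138171834-138172133, minus strand): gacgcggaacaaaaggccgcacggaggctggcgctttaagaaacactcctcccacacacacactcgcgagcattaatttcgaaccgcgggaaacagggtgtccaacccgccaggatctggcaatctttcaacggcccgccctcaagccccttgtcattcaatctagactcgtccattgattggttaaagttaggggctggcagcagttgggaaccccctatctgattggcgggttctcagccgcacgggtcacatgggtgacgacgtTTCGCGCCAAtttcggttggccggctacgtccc

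Genes of early temporal identity fell. Lin28 and Hmga2 are held on in young progenitors and decline as these age. Of 12 early genes 8 fell and 2 rose (median -0.71). Hmga2 went from 3.50, 3.86 and 3.90 to 0.46, 0.86 and 0.49 (-3.15, SE 0.19). Lin28b, which blocks let-7 microRNAs, fell by 2.29 (SE 0.21) and Lin28a by 1.31 (SE 0.21). Hmga1 went the other way, by 1.08 (SE 0.15). Of 10 late genes 4 rose and 0 fell, led by Sox8 (2.59) and Rorb (1.84), but 1 rose without the WT or Isl1KO sample at DD16 or the Isl1KO sample at DD10, and 2 without either B4KO sample. Their median was 0.06, which turned negative with median centring (-0.04) and spike-in scaling (-0.46). Among the early genes 1 rose without the Isl1KO sample at DD16.

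Marker lists of inner retinal neurons were unlike each other in their counts. Of 14 amacrine genes 6 rose and 1 fell, with a median of 0.28 that spike-in scaling turned to -0.24. Ptf1a, which sets amacrine and horizontal fate, was not well above background at DD10 and had 0.88, 0.80 and 1.03 at DD16, at least 54.6-fold higher. Prdm13, its target, went from -6.07, -3.85 and -2.13 to 1.65, 1.90 and 1.68 (5.76, SE 0.73). The GABA carrier Slc32a1 rose by 3.30 (SE 0.31) and the GABA-making Gad2 by 2.37 (SE 0.34). Nr4a2 fell by 1.55, and C1ql2 was not well above background on any of the 6 arrays. Starburst amacrine genes had 0 of 5 higher and 1 lower (20%, near the 18.8% of all genes). Of 15 ganglion cell genes 8 rose and 2 fell, or 4 to 5 rose without either WT sample, the B4KO sample at DD16 or the Isl1KO sample at DD10, and 3 within 1 slide. Isl2 rose by 4.03 (SE 0.22) and Thy1 by 3.94 (SE 0.40), while Eomes and Pou4f1 fell by 1.84 and 0.54 (other probes of Pou4f1 reached 0). Of 8 horizontal cell genes 3 rose (37.5%), Onecut1 (1.16), Septin4 (1.09) and Prox1 (0.69). The 2 that fell (25%, against 18.8% of all genes) were Lhx1 (-1.31) and Onecut3 (-1.57). Without the WT sample at DD16 or either Isl1KO sample 1 rose, and leaving out any 1 sample left 0 or 1 lower. Of 11 bipolar cell genes 5 rose (45.5%) and 2 fell (18.2%), with a median of 0.27 that spike-in scaling turned to -0.25. In that list 3 rose without the B4KO sample at DD16 or either Isl1KO sample.

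Of 14 Mueller glia genes 9 rose and 2 fell. Crym, a thyroid hormone binding protein, had 0.78, 0.58 and -0.05 at DD16, at least 39.5-fold above DD10, where no array read it well above background. Gpr37 and Sox8 rose by 2.27 and 2.59. Rlbp1, of the visual cycle, fell by 1.83 (SE 0.20), as Vim fell by 1.03. Members that fell and members that rose are shared with other lists or cells. Rlbp1 and Vim are also genes of the neuroepithelium or pigment cells, and Crym and Sox8 are also in the thyroid hormone and late temporal lists. Glul, glutamine synthetase, had 0.05 and did not pass.

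Lists of neuronal function differed in how many members rose. Of 29 synaptic vesicle genes 20 rose (69.0%) and 0 fell, with a median of 1.17. Cplx1, a brake on release, went from -3.0, -3.30 and -3.26 to -0.52, -0.31 and -0.63 (2.70, SE 0.12). Doc2b and Rph3a, calcium sensors of release, rose by 2.62 and 2.42. Of 42 transmitter receptor genes 16 rose and 0 fell, or 10 without the Isl1KO sample at DD16. Gria1, an AMPA receptor subunit, went from -2.33, -2.53 and -2.08 to 0.26, 0.35 and 0.83 (2.80, SE 0.16). Of 34 voltage-gated channels 15 rose and 4 fell, with Kcna1 lower by 2.38. Kcna2 passed (2.23) but was well above background on 1 of the 6 arrays. Spike-in scaling turned the medians of receptors (0.29) and channels (0.31) to -0.23 and -0.21. Axon growth genes rose in 12 of 23, or 7 without the Isl1KO sample at DD10, led by Ncam1 (1.55) and Mapt, the protein tau (1.32). Axon guidance genes fell more often than they rose, 15 against 9 of 41, and 4 rose without the Isl1KO sample at DD16. Epha4, Unc5b and Epha7 had -2.34, -1.78 and -1.56, and Unc5a, Plxnc1 and Nrp1 rose by 1.59, 1.22 and 1.01. Of photoreceptor genes 10 of 11 cone genes and 20 of 26 shared genes rose. Of 15 rod genes 4 rose (26.7%, near the 21.9% of all genes), with a median of 0.21 that spike-in scaling turned to -0.31.

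Metabolic lists differed in direction. Of 18 hypoxia genes 9 rose and 0 fell (median 0.35, or -0.17 with spike-in scaling), with Ndrg1 higher by 2.51, Adm by 2.17 and Vegfa by 1.16. Glycolysis genes rose in 10 of 20, or 4 to 6 without any 1 sample, with a median of 0.26 that spike-in scaling turned to -0.26, and the largest rise was Pfkp (1.33). Cholesterol synthesis genes fell in 11 of 23 and 0 rose, or 6 to 7 fell without the WT sample at DD16, either B4KO sample or the Isl1KO sample at DD10. Of 47 oxidative phosphorylation genes 10 fell and 2 rose (median -0.05), and of 26 ribosome biogenesis genes 4 fell, among them Myc (-2.07). These last shares of 21.3% and 15.4% were near the 18.8% of all genes. Leaving out any 1 sample gave 3 to 5 falls in the first list, and 1 ribosome biogenesis gene fell without the Isl1KO sample at DD16. Among matrix genes the proteoglycan Bcan rose by 3.95 (SE 0.26) and Col11a1 fell by 1.84. Immediate early genes split, with Nr4a1 and Ier3 higher by 1.73 and 1.69 and Egr1 and Arc at -1.55 and -1.45.

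The size of the step was then compared between lines, each with 1 sample per day. The loss of a factor cannot be told apart here from other differences of line, clone or culture. In limma with a term for each line's step, 0 genes passed in any pair of lines or in the F test over the 3 lines. The lowest adjusted p was 0.635, for Isl1KO against WT. At an unadjusted p under 0.05, limma gave 1483 genes for B4KO minus WT (6.29%), 1145 for Isl1KO minus WT (4.85%), 1125 for Isl1KO minus B4KO (4.77%) and 1309 for the F test (5.55%). The median SE of a difference of steps was 0.27 for B4KO minus WT, against 0.11 for the shared step, and only 2 residual degrees of freedom remained. Those 2 come from where each line stood at DD23 relative to its mean of DD10 and DD16. The SE and p of a difference of steps are thus scaled by DD23 and by the spread over all genes, not by repeated steps. A p that misses the threshold here does not show that the lines stepped alike.

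By size, without any claim of a difference, Prl3d1 and Prl3b1, hormones of the placenta, were among the largest differences of step from WT, as were Krt8 and Lgals3. Prl3d1 had 1.30 and -3.54 in WT at DD10 and DD16, against -4.27 and -4.07 in B4KO and -3.36 and -3.49 in Isl1KO. Krt8, a keratin of simple epithelia, had 0.32 and -2.42 in WT, -1.97 and -1.73 in B4KO, and -2.11 and -2.36 in Isl1KO. Lgals3 had -1.39 in WT at DD10 and between -4.02 and -2.72 on the other 5 arrays. All 4 genes were thus high on 1 array, WT at DD10, and their part in other WT steps was not tested. Their differences of step from WT were 5.04 (SE 1.98) in B4KO and 4.70 (SE 1.98) in Isl1KO for Prl3d1, and 2.98 (SE 1.30) and 2.49 (SE 1.30) for Krt8. Keratin 18 (Krt18), the partner of Krt8, was bright everywhere, from 2.25 to 4.14.

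Isl1, read here as a knockout target, stepped by 2.04 in WT, 0.27 in B4KO and 0.81 in Isl1KO. Its differences from WT were -1.78 (SE 0.41) in B4KO and -1.24 (SE 0.41) in Isl1KO, and neither passed. Neither was among the 6 largest negative differences from WT of established genes above background on the arrays compared. Genes of developmental interest were among the other large differences. Pou4f2, the ganglion cell factor that works with Isl1, had 0.03 and 2.03 in WT, 2.17 and 1.60 in B4KO, and 1.14 and 2.20 in Isl1KO. The difference of the B4KO from the WT step was -2.56 (SE 1.12). Cyp26b1 rose in every line, by 3.13, 5.79 and 4.28, and the B4KO excess over WT was 2.67 (SE 0.62). Gli1, a Hedgehog target, went from -0.63 to -3.56 in WT, from -4.03 to -4.08 in B4KO and from -1.97 to -3.76 in Isl1KO. Irx4, an Iroquois factor, went up by 2.18 in WT and 2.70 in B4KO and had a step of -1.07 in Isl1KO (-3.25 from WT, SE 0.44). Sema3a, an axon repellent, had steps of -1.64, -2.55 and -0.30. Ret, a neurotrophic receptor, stepped by 2.16 and 2.38 in WT and Isl1KO and by -0.16 in B4KO, where it already stood at -1.35 at DD10.

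Rccd1 in B4KO and Zfp9 and Xkr4 in Isl1KO were read far from the other samples on 1 array. Rccd1 had -4.39 in B4KO at DD16 and between -0.98 and -0.36 on the other 5 arrays. Zfp9 had -0.28 in Isl1KO at DD16 and between -4.08 and -3.39 elsewhere. Lrrk1 had steps of 1.65, -0.95 and -0.91, but its 4 probes disagreed, with mean steps from -2.36 to -0.07. Loxl3 stepped by 2.43 in WT, -0.01 in B4KO and -1.14 in Isl1KO, and Ace by 2.96, 0.98 and 0.42.

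**Figure D5:**
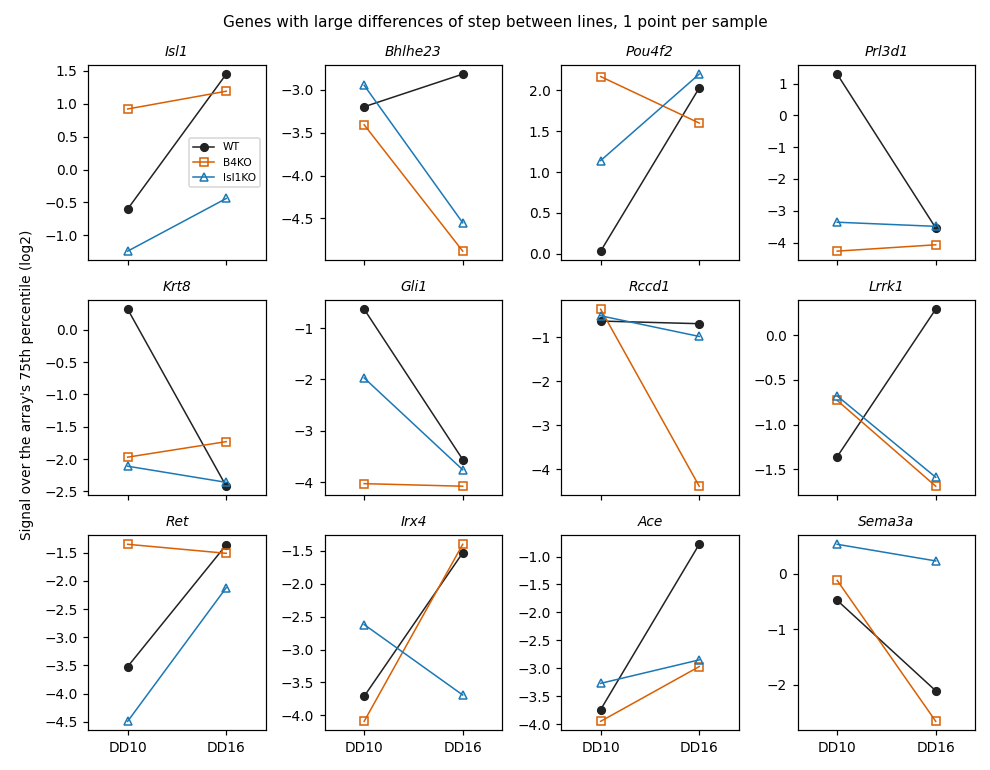
Signal (log2, over the array's 75th percentile) at DD10 and DD16 in each line of the 2 targeted genes and 10 genes with large differences of step between lines, 1 point per sample. None passed the limma test of a difference of steps; Prl3d1 and Krt8 are high on 1 array, WT at DD10, and Rccd1 is low on 1, B4KO at DD16.

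Over lists, the medians of single samples are given by line. The median signal of hem and pallium genes was 1.80 in WT, 0.76 in B4KO and 1.23 in Isl1KO at DD10, and -0.55, -0.11 and -0.70 at DD16. WT had the most negative step for 13 of those 16 genes, against 33.3% of all genes. Progenitor genes showed the reverse, with medians of 2.40, 3.64 and 3.46 at DD10 and 3.30, 3.35 and 3.45 at DD16, and B4KO had the lowest step for 12 of 15. Ganglion cell genes had 0.03, 0.92 and -0.17 at DD10 and 1.45, 1.19 and 0.33 at DD16. Mesenchyme genes had median steps of -1.50 in WT, -0.25 in B4KO and 0.09 in Isl1KO, lowest in WT for 10 of 11. These are values of single samples with no test. Like splits were seen in other lists, where WT was lowest for 13 of 16 p53 targets and B4KO for 17 of 20 mitosis genes. Without the WT sample at DD10 the counts were 13 hem and pallium genes lower, 8 progenitor genes higher and 3 lower, and 5 ganglion cell genes higher and 1 lower.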

How the data were processed

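The deposited scanner files hold processed signal intensities of each spot, and per the file headers the software was Feature Extraction 12.0.3.1 from Agilent. The authors' deposited value table holds processed signal relative to a constant per array. Its log2, taken here, served as an alternative. The log2 of the processed signal minus the 75th percentile of its array was used, averaged over spots of a probe. Genes were named through RefSeq accessions where these matched (32926 probes) and by the file's own name otherwise (23577). A gene was read by its brightest probe and tested where 3 or more of the 9 arrays called that probe well above background. On the arrays of both days 57.3% to 65.2% of spots were well above background, and precision is set by how few arrays there are. Line and day were fitted with limma 3.58.1 in R 4.3.3, with Benjamini-Hochberg adjustment, and the script was checked on simulated data. Samples were paired by line, which the labels give. Nothing says that samples are separate cultures beyond their lines, so p-values measure only the spread between these samples. The members and lists were chosen with earlier results of these data known. Text genes were the knockout targets, the largest changes over all genes, per list and per difference of steps, and genes with a printed promoter. Others were chosen after their values were seen. Some genes are not reported here.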

Additional observations from a re-analysis of the deposited data

How the results depend on the processing

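Without the replicate block, that is without pairing by line, 6172 genes passed (3225 higher, 2947 lower), against 9606 with it. Within the slide of WT and Isl1KO these were 4899, 2725 and 2174. Without the Isl1KO line 1849 were higher and 1367 lower, and without the WT line 3032 and 2223. With spike-in scaling, chosen after seeing the data, 15931 passed, 1607 higher and 14324 lower. Leaving out 1 sample gave 5899 to 7272 genes, 3194 to 4015 higher and 2643 to 3305 lower. Genes called and at least 2-fold apart numbered 1440 with normexp background correction, 1625 when all 6 arrays had to be above background and 4014 with spike-in scaling. With spike-in scaling list medians that changed sign included -0.31 (rods), -0.24 (amacrine), -0.25 (bipolar), -0.29 (surface ectoderm), -0.17 (hypoxia), -0.26 (glycolysis), -0.21 (channels), -0.23 (receptors), -0.46 (late temporal), -0.33 (retinoic acid), -0.24 (Notch), -0.16 (horizontal), -0.44 (hindbrain), -0.39 (neural crest), -0.32 (p53), -0.39 (eye axis), -0.43 (imprinted), -0.27 (pluripotent), -0.37 (muscle), -0.02 (endothelium) and -0.39 (neuron form of the splicing and BAF switch), and Atf4 turned to -0.12. Median centring turned the medians of late temporal (-0.04), hindbrain (-0.02) and imprinted genes (-0.02), and the single slide those of muscle (-0.11) and heat shock genes (0.06), while the median over probes turned Dnaja1 to 0.27. The cause of these changes was not tested. Of the gene values under the alternatives run for them 1373 kept direction and side of the threshold, 98 no longer passed, 23 newly passed and 2 reversed. No test of a difference of steps passed under the alternatives run. Dim genes have only bounds, and single samples per line and day limit every comparison of lines.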
